A study of Homo sapiens with 4 samples.

Results

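The annexin genes *ANXA1*, *ANXA2*, *ANXA3*, *ANXA4*, *ANXA5*, *ANXA6*, *ANXA7* and *ANXA11* and the annexin partner *S100A10* were examined in RNA-seq libraries of SK-N-SH, an established human neuroblastoma cell line. They were selected by gene symbol, and their 118 transcripts of the 196520 in the deposited table were summed per gene identifier, which gave 9 of 57820 genes. All 9 passed the filter on low counts. Cells of the *RP5-998N21.4* OE group (OE) carried a lentivirus with the long noncoding RNA *RP5-998N21.4* behind the EF1a promoter in the PHAGE-fullEF1a-MCS-IZS Green vector, and the vector control cells (controls) carried the same vector without an insert. Each group had 2 libraries, and both groups went through lentiviral transduction. The control libraries are titled WT, while their treatment label names the empty vector, and the latter was followed. The labels do not say whether the libraries of a group came from separate cultures, so p-values measure only the spread between these libraries. The overexpressed gene had 1.39 ± 0.0213 CPM (counts scaled to the normalized library total, SD, n = 2) in the controls and 96.5 ± 0.816 in OE.

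Annexins are soluble proteins that bind acidic phospholipids in the presence of calcium, through a conserved core of repeats. Each has its own N-terminal segment, which binds other proteins. They are known for roles in membrane traffic, in the repair of the plasma membrane and in signaling to the cell surface, and *S100A10* encodes the small protein that joins with ANXA2 in a heterotetramer at the inner face of the membrane.

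*ANXA2* was counted beside a near-identical copy that took most of the counts, so the sequences of both are shown first. The copy is the processed pseudogene *ANXA2P2*, a single-exon sequence of 1020 bases at chr9:33624272-33625291 on the plus strand of hg19. *ANXA2* lies at chr15:60639333-60695082 on the minus strand, and its main transcript has 1676 bases in 14 exons. Sequences are from the GENCODE annotation lifted to GRCh37, written 5′ to 3′. The first pair is the start of the coding sequence, which encodes the segment that binds S100A10. It covers bases 161 to 220 of the *ANXA2* transcript, from exon 3 to exon 4 within chr15:60674629-60678274, and chr9:33624272-33624331 in the copy. Capitals mark the base on either side of the exon junction of *ANXA2*, and the pair has 0 differences.
*ANXA2* bases 161 to 220: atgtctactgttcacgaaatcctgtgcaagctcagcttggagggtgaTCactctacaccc
*ANXA2P2*, same stretch: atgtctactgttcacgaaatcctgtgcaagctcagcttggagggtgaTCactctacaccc

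The second pair is the last exon junction of *ANXA2* that the copy covers, between exons 13 and 14, within chr15:60639859-60641303 and at chr9:33625202-33625261. The capitals again mark the junction, and 1 base of 60 differs.
*ANXA2* bases 1091 to 1150: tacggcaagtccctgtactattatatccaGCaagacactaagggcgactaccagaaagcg
*ANXA2P2*, same stretch: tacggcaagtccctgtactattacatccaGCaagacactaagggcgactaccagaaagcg

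The third pair is the stretch of 60 bases with the most differences, 5, which lies in exon 5 at chr15:60656651-60656710 and in the copy at chr9:33624432-33624491. Here the capitals mark the bases that differ.
*ANXA2* bases 321 to 380: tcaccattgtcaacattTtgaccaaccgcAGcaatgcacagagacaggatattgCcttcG
*ANXA2P2*, same stretch: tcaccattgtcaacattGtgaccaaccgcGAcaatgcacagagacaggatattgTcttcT

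Over its whole length *ANXA2P2* matched bases 161 to 1180 of the *ANXA2* transcript with 16 mismatches and 0 gaps, an identity of 98.4%, and its longest identical run was 221 bases. The stretch spans 11 of the 13 exon junctions of *ANXA2*. Of the 1527 possible windows of 150 bases in the *ANXA2* transcript, the read length of the study, 407 lay inside 1 exon. In the copy, by contrast, every window lies in 1 exon. A total of 606 windows (39.7%) had at most 3 mismatches to *ANXA2P2*. All 606 crossed an exon junction of *ANXA2*, which the exon lengths fix in advance. Of its 14 exons, 13 are under 150 bases, and the copy ends at base 1180, soon after the last junction at base 1120. The authors mapped the reads to hg19 with Bowtie2, which does not split a read across an intron. How the transcript counts were made from the mapped reads is not given in the sources used here.

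**Figure D1:**
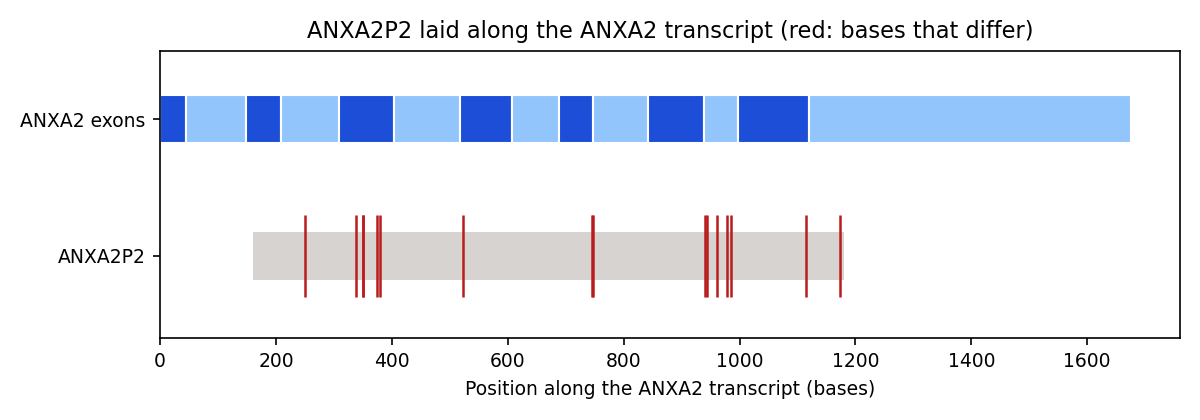
The 14 exons of the *ANXA2* transcript (upper bar, alternating shades) and the stretch matched by *ANXA2P2* (lower bar) are plotted against position along the transcript in bases, with red lines at the 16 bases that differ. The copy covers bases 161 to 1180 and 11 of 13 exon junctions, and the differences leave runs of up to 221 identical bases.

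*ANXA2P2* took most of the counts of the pair in every library. It had 46945 and 47950 counts in the controls and 43610 and 50112 in the OE libraries, while *ANXA2* (ENSG00000182718.12) had 4541 and 5159 counts and 5307 and 5361 counts. By mean CPM the pseudogene ranked 18 of the 57820 genes and *ANXA2* ranked 813. The copy held 10.3, 9.29, 8.22 and 9.35 counts for each count of *ANXA2* (vector control 1 and 2, then OE 1 and 2), or 17, 15.3, 13.5 and 15.4 per unit of transcript length. The share of counts on *ANXA2* among those of *ANXA2* and its 3 listed pseudogenes stayed between 8.81% and 10.8%. The other 2 copies, *ANXA2P1* (93.6% identical) and *ANXA2P3* (91.4% identical), had from 4 to 25 counts in any library. How many of the *ANXA2P2* counts came from *ANXA2* RNA was not tested.

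Against the vector control, 1 member (*ANXA3*) had a higher estimate in OE and 8 had a lower one, and none passed the test. At an adjusted p under 0.05 (edgeR's quasi-likelihood test, adjusted by Benjamini-Hochberg over 20528 tested genes), 0 of 9 members and 0.594% of all tested genes were called. By edgeR's p before adjustment, with 0.05 as the threshold, 1 member was higher (background 10.1%) and 2 were lower (background 10.7%), namely *ANXA3*, *ANXA6* and *S100A10*. DESeq2 called the same 3 genes at an adjusted p under 0.05, 1 higher (background 9.32%) and 2 lower (background 10.5%). At that threshold limma-voom called 0 members and 299 of all tested genes. At the study's stricter thresholds (adjusted p under 0.01, absolute log2 fold change above 0.5) DESeq2 called 2 of the 3, *ANXA3* and *ANXA6*. It called 1800 of the 20528 tested genes at these thresholds. The OE libraries were both higher than the controls for 1 member (27.8% of tested genes) and both lower for 5 (27.6% of tested genes). The median log2 fold change was -0.15 over the members and 0.01 over all tested genes. The summed level of the 9 genes was 662 and 680 CPM in the controls and 594 and 566 CPM in the OE libraries. In such bulk samples, fewer cells that express a gene and less RNA of it per cell cannot be told apart.

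**Figure D2:**
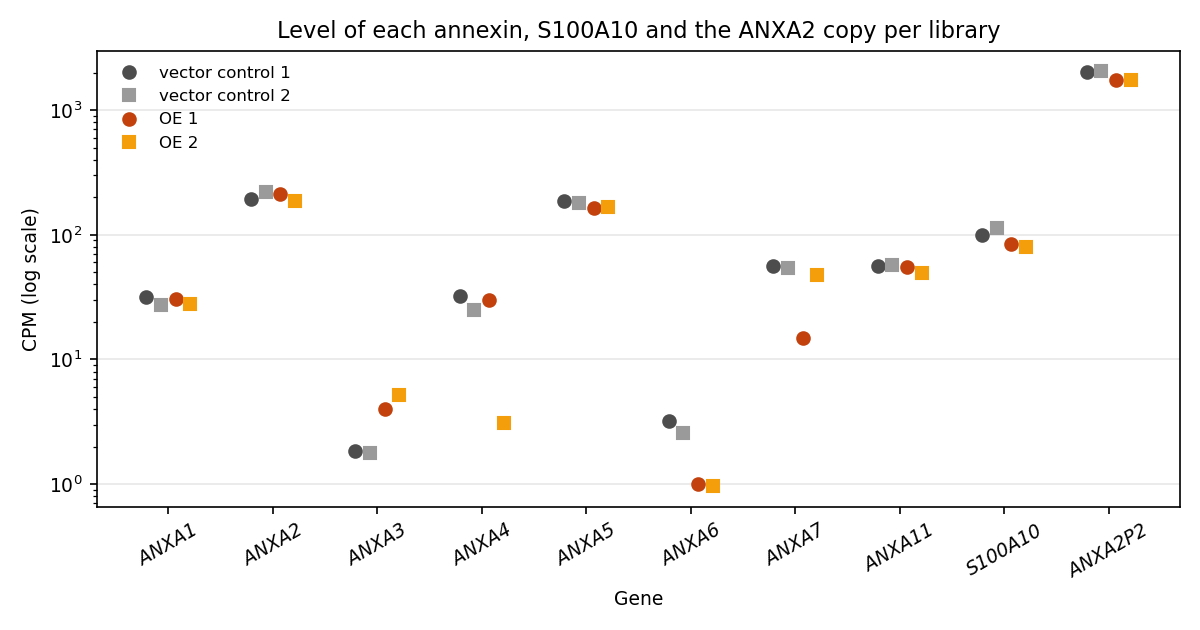
Level of the 9 members and of *ANXA2P2* in each library, in CPM on a log scale, with gray points for the vector control and red and orange points for OE (circles, library 1, squares, library 2). *ANXA3* sits higher and *ANXA6* lower in both OE libraries, *ANXA4* is low in OE 2 alone, *ANXA7* is low in OE 1 alone, and *ANXA2P2* lies above every member.

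*ANXA3* (ENSG00000138772.8, chr4:79472901-79531605, plus strand) encodes an annexin described on the granules of neutrophils. It had 43 and 42 counts in the controls and 100 and 150 counts in the OE libraries. The level was 1.82 ± 0.0419 CPM (SD, n = 2) in the controls and 4.59 ± 0.849 CPM (SD, n = 2) in OE. Both OE libraries were above both controls, and OE 2 was the highest. This was a log2 fold change of 1.33 (SE 0.227), or 2.52-fold, with an edgeR adjusted p of 0.101. DESeq2 gave an adjusted p of 0.000201, and over the 14 alternatives the adjusted p ranged from 0.000201 to 0.3. Leaving out 1 library at a time moved the log2 fold change only between 1.13 and 1.51. All counts sat on 1 of its 10 listed transcripts, ENST00000264908.6. The study picked *ANXA3* by overlapping genes changed in these same libraries with genes from a twin cohort, so its value here is a description and not independent evidence. In a follow-up experiment, the paper reports a higher *ANXA3* level on overexpression in SK-N-SH cells but not in HEK293T cells.

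*ANXA6* (ENSG00000197043.9, chr5:150480267-150537376, minus strand) encodes the large annexin with a duplicated core, a scaffold at membranes for signaling proteins such as RASA1. Counts of 75 and 60 in the controls stood against 25 and 28 in OE. Both OE libraries were below both controls, at 0.982 ± 0.02 CPM (SD, n = 2) against 2.89 ± 0.472 CPM (SD, n = 2). The estimate was a log2 fold change of -1.55 (SE 0.247), or 0.341-fold, with an edgeR adjusted p of 0.0951. DESeq2 gave an adjusted p of 0.000197, and the range over the 14 alternatives was 0.000197 to 0.296. Without any single library the log2 fold change stayed between -1.71 and -1.38. *ANXA3* and *ANXA6* were the 2 members with the lowest mean counts.

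*S100A10* (ENSG00000197747.4, chr1:151955391-151966335, minus strand) encodes the partner of ANXA2, which binds plasminogen at the cell surface. It had 2312 and 2664 counts in the controls and 2118 and 2329 in OE. In normalized units this was 106 ± 9.96 CPM (SD, n = 2) in the controls and 82.5 ± 2.75 CPM (SD, n = 2) in OE, with no overlap. On the log2 scale the change was -0.37 (SE 0.105), or 0.775-fold, with an edgeR adjusted p of 0.188. DESeq2 gave an adjusted p of 0.00691, within a range of 0.00691 to 0.372 over the 14 alternatives. The estimate lay between -0.46 and -0.27 with 1 library left out.

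*ANXA2*, the other subunit of the tetramer, differed by less than its spread. It had 207 ± 17.4 CPM (SD, n = 2) in the controls and 198 ± 18.5 CPM (SD, n = 2) in OE, and the libraries of the groups overlapped. The log2 fold change was -0.06 (SE 0.11, edgeR adjusted p 0.79). For *ANXA2P2*, the values were 2016 and 2041 CPM in the controls and 1738 and 1732 CPM in OE, a log2 fold change of -0.23 (SE 0.0314, edgeR adjusted p 0.0826). When *ANXA2* and its copies were summed, the level was 2212 and 2261 CPM in the controls and 1950 and 1919 CPM in OE. The log2 fold change of the sum was -0.21 (SE 0.0332, edgeR adjusted p 0.0946). The *ANXA2* counts alone thus overlapped between the groups, while the sum did not. Per unit of transcript length, *S100A10* had 1.27 and 1.29 times the level of *ANXA2* in the controls and 0.997 and 1.09 times in OE. Against the sum of *ANXA2* and its copies over the length of the *ANXA2* transcript, these ratios were 0.112 and 0.125 in the controls and 0.108 and 0.105 in OE.

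*ANXA5* (ENSG00000164111.10, chr4:122589101-122618150, minus strand) encodes the annexin that binds phosphatidylserine and is used to mark apoptotic cells. It had 186 and 179 CPM in the controls and 163 and 167 CPM in OE, so both OE libraries were lower. The log2 fold change was -0.15 (SE 0.0661, edgeR adjusted p 0.315), and it lay between -0.18 and -0.12 with 1 library left out. *ANXA11* (ENSG00000122359.13, chr10:81910645-81965328, minus strand) encodes a tether between RNA granules and lysosomes. Its level was 56.3 and 57.7 CPM in the controls and 54.9 and 49.2 CPM in OE. Both OE libraries were again lower, with a log2 fold change of -0.13 (SE 0.102, edgeR adjusted p 0.533).

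**Figure D3:**
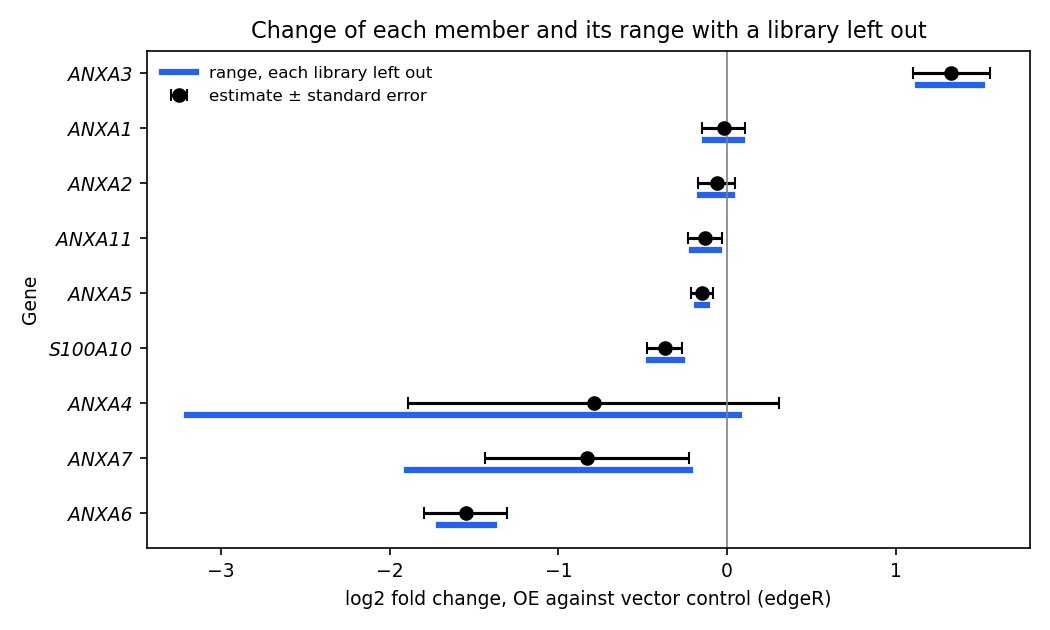
Log2 fold change of each member in OE against the vector control (black points, edgeR estimate ± standard error) and the range of the estimate when each of the 4 libraries was left out in turn (blue bars). *ANXA3* stays above 0 and *ANXA6* below 0, while the bar of *ANXA4* runs from -3.20 to 0.07.

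For *ANXA4* and *ANXA7*, 1 OE library stood apart and set the estimate. *ANXA4* (ENSG00000196975.10, chr2:69871557-70054244, plus strand), an annexin that assembles on membranes in a calcium-dependent way, had 749 and 588 counts in the controls, 752 in OE 1 and 90 in OE 2. *ANXA7* (ENSG00000138279.11, chr10:75134859-75173834, minus strand), also known as synexin for its action on chromaffin granules, had 1319 and 1270 counts in the controls, 373 in OE 1 and 1370 in OE 2. The low library was thus not the same for the 2 genes. The OE replicates differed 9.63-fold for *ANXA4* and 3.19-fold for *ANXA7* on the CPM scale. Of the tested genes, 19.2% had replicates of a condition more than 2-fold apart, as these 2 of 9 members did. The log2 fold change of *ANXA4* was -0.79 (SE 1.1, edgeR adjusted p 0.735) and turned to 0.07 without OE 2. That of *ANXA7* was -0.83 (SE 0.604, edgeR adjusted p 0.505) and lay between -1.90 and -0.22 with 1 library left out.

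A single low library was not rare in the table. In 6.72% of tested genes, 1 library lay more than 3-fold below the lowest of the other 3, and this held for 358, 373, 371 and 277 genes in vector control 1, vector control 2, OE 1 and OE 2. *ANXA7* was among the 371 and *ANXA4* among the 277. The drop of *ANXA4* lay on its main transcript ENST00000394295.4, which had 702 and 493 counts in the controls, 698 in OE 1 and 36 in OE 2, while ENST00000418066.2 had 44, 20, 47 and 50 counts in the same order. The drop of *ANXA7* likewise lay on its main transcript ENST00000372921.5, with 1315, 1270, 370 and 1363 counts. *AAK1* and *GMCL1*, which flank *ANXA4*, had 514, 380, 520 and 548 counts and 1347, 1407, 1574 and 1845 counts. Neither neighbor was low in OE 2. Exons of *ANXA7* overlap those of *RP11-537A6.9* on the opposite strand, but that gene had at most 8 counts in a library.

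*ANXA1* (ENSG00000135046.9, chr9:75766781-75785309, plus strand), a protein induced by glucocorticoids that acts on formyl peptide receptors, kept its gene total while its transcripts traded places. The gene had 743 and 644 counts in the controls and 766 and 811 counts in OE. The groups overlapped, at 29.7 ± 3.18 CPM (SD, n = 2) and 29.3 ± 1.76 CPM (SD, n = 2). The log2 fold change was -0.02 (SE 0.129, edgeR adjusted p 0.953), and it turned to 0.02 with upper-quartile factors. ENST00000376911.1 had 743, 524, 728 and 0 counts in vector control 1, vector control 2, OE 1 and OE 2, and ENST00000257497.6 had 0, 115, 0 and 807. OE 2 therefore held nearly all its counts on a transcript that 2 of the other 3 libraries listed at 0. The pair of transcripts, 2209 and 1401 bases long, shares 11 identical exons and 1343 bases. With each transcript divided by its own length, the gene had 14.4 and 13.9 CPM per kilobase in the controls and 15.1 and 20.1 in OE. On that scale both OE libraries lay above both controls, unlike the gene totals. Read from the single transcript with the highest mean count, the log2 fold change of *ANXA1* would have been -0.90. Each count of 0 allows up to 3 counts, and this limit covers counting error alone, as no molecular identifiers were used.

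**Figure D4:**
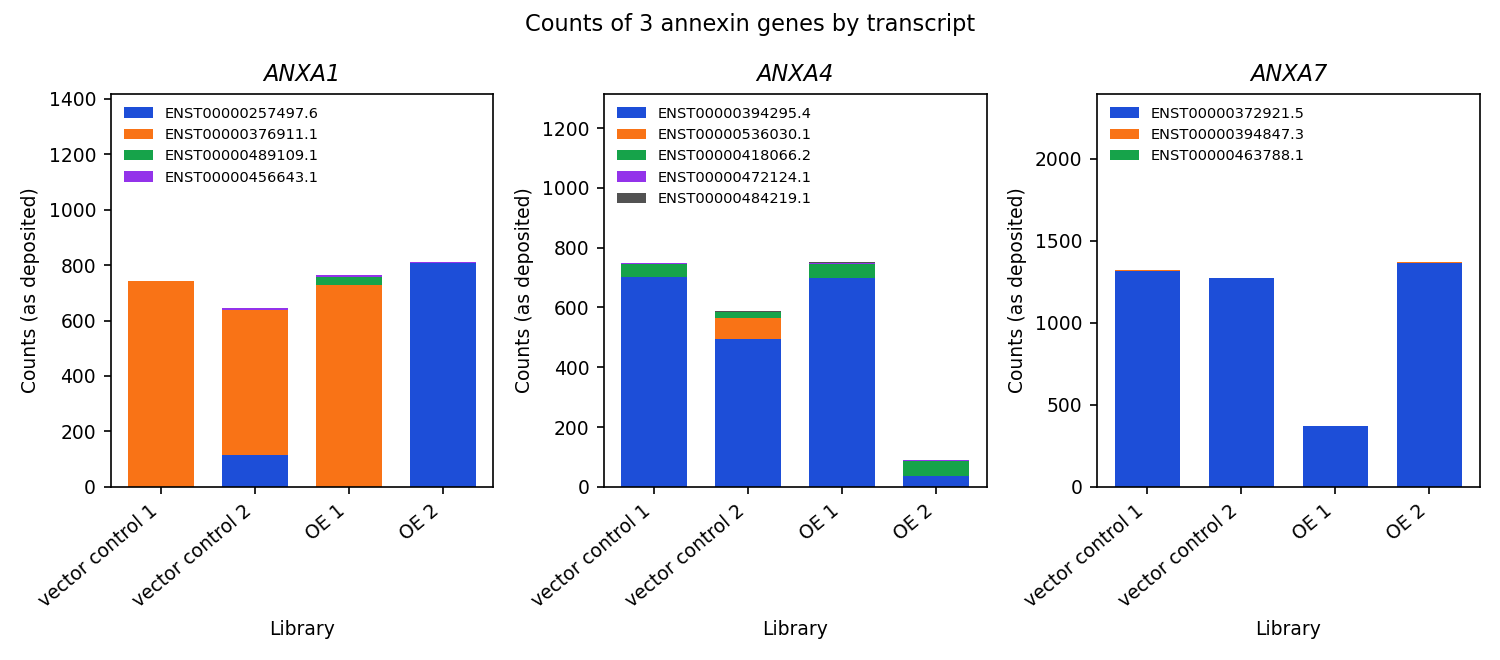
Deposited counts of *ANXA1*, *ANXA4* and *ANXA7* in each library, stacked by transcript. The *ANXA1* bars are similar in height but change from one transcript to another in OE 2, and the main transcript is low in OE 2 for *ANXA4* and in OE 1 for *ANXA7*.

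The other members kept 1 main transcript. For *ANXA2*, *ANXA5*, *ANXA11* and *S100A10* it held at least 97.3% of the counts of the gene in every library. For *ANXA6*, ENST00000354546.5 held from 80% to 100%.

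Between genes, levels were compared as CPM per kilobase of the main transcript. In the vector control the order was *S100A10* (158 ± 14.8, SD, n = 2), *ANXA2* (124 ± 10.4), *ANXA5* (111 ± 3.04), *ANXA7* (22.7 ± 0.751), *ANXA1* (13.4 ± 1.44), *ANXA4* (10.8 ± 1.9), *ANXA11* (8.18 ± 0.134), *ANXA3* (1.27 ± 0.0292) and *ANXA6* (0.999 ± 0.163). The 2 libraries of each gene did not overlap with those of the next gene in this order. The place of *ANXA2* rests on its own counts alone, and summed with its copies it had 1320 and 1349 CPM per kilobase of its transcript in the controls and 1163 and 1145 in OE, above *S100A10* in both groups. In OE the libraries of *S100A10* (123 ± 4.1) and *ANXA2* (118 ± 11) overlapped. Those of *ANXA7* (12.7 ± 9.41) spanned those of *ANXA1* (13.3 ± 0.797) and *ANXA11* (7.48 ± 0.577), and those of *ANXA4* (6.24 ± 7.16), at 11.3 and 1.17, spanned those of *ANXA11* and *ANXA3* (3.2 ± 0.593). *ANXA6* (0.34 ± 0.00692) was the lowest in both groups, and *ANXA3* had the next lowest mean. For *ANXA1*, whose counts lay on a shorter transcript in OE 2, dividing each transcript by its own length gave 14.4 and 13.9 CPM per kilobase in the controls, 15.1 in OE 1 and 20.1 in OE 2. By those values *ANXA7*, at 6.08 and 19.4 in OE, did not span *ANXA1*. *ANXA2P2* had 1989 ± 17.1 CPM per kilobase in the controls and 1701 ± 3.8 in OE.

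Among 6 other annexin genes of the table, only *ANXA9* passed the filter, with 79 and 83 counts in the controls and 52 and 63 in OE. Its log2 fold change was -0.70 (SE 0.182, edgeR adjusted p 0.166). *ANXA8*, *ANXA8L1* and *ANXA13* were at 0 counts in all 4 libraries, and *ANXA10* and *ANXA8L2* had at most 4 counts.

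Of 18 other S100 genes, which encode small calcium-binding proteins, 9 were tested, 4 with higher and 5 with lower estimates and a median log2 fold change of -0.30. None was called by edgeR, and DESeq2 called 2, both lower (background 10.5%). *S100A4*, which is known for its role in cell motility, had 2434 and 2650 counts in the controls and 1101 and 986 in OE, a log2 fold change of -1.48 (SE 0.163, edgeR adjusted p 0.069). *S100A3* was at -0.39 (SE 0.104, edgeR adjusted p 0.174). The abundant *S100A6* and *S100A16* had log2 fold changes of -0.35 and -0.30, with libraries that overlapped between the groups, and 7 S100 genes were at 0 in every library.

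Of 16 annexin partners and receptors, 11 were tested, 4 higher and 7 lower, with a median log2 fold change of -0.06. None was called by edgeR, and DESeq2 called 1 higher (background 9.32%) and 2 lower (background 10.5%). *FPR1*, *FPR2* and *FPR3*, the formyl peptide receptors on which ANXA1 acts, were at 0 in every library. *AHNAK*, the giant scaffold bound by the ANXA2 tetramer, had 58060 and 47587 counts in the controls and 54803 and 61843 in OE. Its relative *AHNAK2* had 19 counts in vector control 1 and from 11922 to 14954 in the other 3 libraries, another gene with 1 low library. *DLC1*, which encodes a GTPase-activating protein that binds S100A10, was at a log2 fold change of 0.33 (SE 0.0825, edgeR adjusted p 0.156). *HTR1B*, a serotonin receptor that binds S100A10, had 20 and 17 counts in the controls and 4 and 0 counts in OE.

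The ANXA2 tetramer is also a surface site for plasminogen and its activator. Of 11 genes of the plasmin system, 10 were tested, 2 higher and 8 lower, with a median log2 fold change of -0.07 and 0 called by edgeR. DESeq2 called 1 higher (background 9.32%) and 1 lower (background 10.5%). *PLG*, which encodes plasminogen, was at 0 in every library. *SERPINF2*, the plasmin inhibitor gene, was at a log2 fold change of 1.57 (SE 0.368, edgeR adjusted p 0.147). *LRP1*, a clearance receptor, had 333 and 306 CPM in the controls and 320 and 319 CPM in OE. The activator gene *PLAT* had 290 and 269 CPM in the controls, 31.9 in OE 1 and 213 in OE 2, and *ENO1*, which encodes a plasminogen-binding enolase, had 357, 363, 67.2 and 310 CPM. Both were low in OE 1, the library in which *ANXA7* was low, and both were chosen for mention after their values were seen.

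Of 19 membrane repair genes, 15 were tested, 6 higher and 9 lower, with a median log2 fold change of -0.07. None was called by edgeR, and DESeq2 called 3 higher (background 9.32%) and 2 lower (background 10.5%). *SYT7*, a calcium sensor of lysosome exocytosis, was at a log2 fold change of 0.53 (SE 0.1, edgeR adjusted p 0.114), and *EHD2*, which stabilizes caveolae, at -0.42 (SE 0.0743, edgeR adjusted p 0.107). *CAV1*, the caveolin gene, had 566 CPM in vector control 1 and from 146 to 172 CPM in the other 3 libraries. *CHMP3*, an ESCRT-III subunit, had 139 and 132 CPM in the controls and 147 and 142 CPM in OE.

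Neuroblastoma lines hold adrenergic and mesenchymal cells, and SK-N-SH contains both, so markers of each were read beside the members. Of 8 adrenergic markers, 7 were tested, all 7 had both OE libraries above both controls (27.8% of tested genes did), and the median log2 fold change was 0.96. In 2 of the 7, replicates of a condition were more than 2-fold apart (19.2% of tested genes). *TH* was at 0 in every library, and the summed level was 540 and 610 CPM in the controls and 909 and 869 CPM in OE. Of these markers, edgeR called 1, and it called 0 when any 1 library was left out. Of 8 mesenchymal markers, all were tested, 1 was higher and 7 were lower, 6 of these without overlap (27.6% of tested genes), and the median was -0.66. Replicates of a condition were more than 2-fold apart in 3 of the 8. *CD44* was at -0.71 (SE 0.065, edgeR adjusted p 0.0615) and *SNAI2* at -0.68 (SE 0.089, edgeR adjusted p 0.078). The summed mesenchymal level was 3303 and 3253 CPM in the controls, 3587 in OE 1 and 2071 in OE 2, and *VIM* had 31466 counts in OE 1 and from 8111 to 10869 in the others. Of 7 listed markers of other tissues in the table, the summed level was from 0.717 to 2.04 CPM. Whether the values of the annexins go with those of the markers was not tested.

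**Figure D5:**
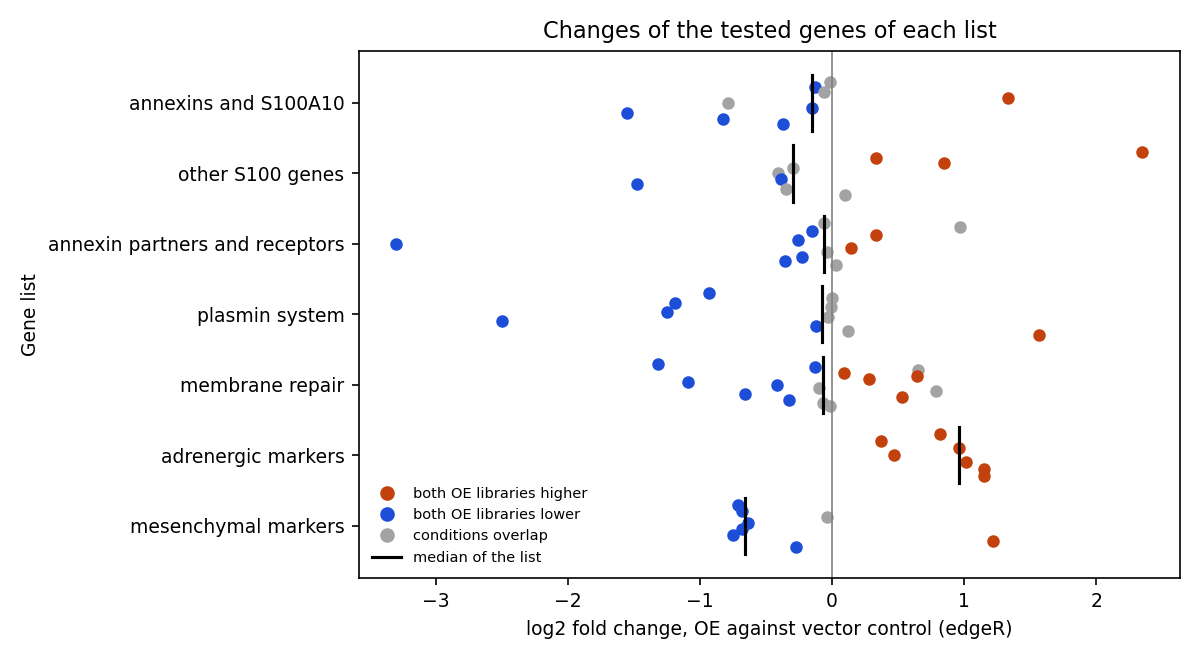
Log2 fold change of each tested gene (points, edgeR) for the members and 6 related lists, with the list median as a black line. The adrenergic points all lie above 0 and 7 of 8 mesenchymal points below it, while the other lists have points on both sides and medians between -0.30 and -0.06.

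The 5 genes whose pattern over the 4 libraries was closest to that of *ANXA3* were *ATP8A1*, *ASTN1*, *NMNAT2*, *GYS1* and *EIF4E3*. Likeness was the Euclidean distance between log2 CPM values centered on each gene, from 0.117 for *ATP8A1* to 0.184 for *EIF4E3*, over 4 libraries and 17500 other genes. *ATP8A1*, a phospholipid flippase, had 8.46 and 8.26 CPM in the controls and 19.1 and 22.2 CPM in OE. *EIF4E3* had 2.53 and 2.55 CPM in the controls and 5.98 and 6.53 CPM in OE. As the 5 genes were chosen for this pattern, their levels are a description, with no test.

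Promoters of the 9 genes, from RefSeq on GRCh38.p14 and reaching from 250 bases before to 50 bases after the start, were searched on both strands for 5 short motifs. A gene counted where any of its listed promoters held the motif, while the shares of all promoters count single entries. *ANXA11* had 3 entries and *ANXA4* and *ANXA6* had 2 each, so these are unlike measures. The core of the interferon-stimulated response element was in 0 of 9 genes and in 3.57% of all 35116 promoters. The STAT element TTCNNNGAA was found for *ANXA1* (7.66% of all promoters) and the AP-1 element TGANTCA for *ANXA2* (7.71%). The GC box GGGCGG was found for 7 genes, all but *ANXA1* and *ANXA3* (45% of all promoters), and TATAAA for *ANXA1*, *ANXA2* and *ANXA11* (11.5%). *ANXA3* held none of the 5 in this window, which had a GC content of 64.7%. A match or its absence describes only these letters in this window.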

How the data were processed

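The data were 4 RNA-seq libraries of SK-N-SH cells, 2 per group, with groups and replicate numbers from the sample labels. Reads were trimmed with Trimmomatic and mapped to hg19 with Bowtie2 by the authors. The deposited values are raw counts for each transcript. The submitters' processing notes name Bowtie2 2.0.4, Picard 2.21.6, StringTie 2.1.6 and DESeq2, with no role. The counting tool, annotation release and use of strand are not given in the sources used here, so reads of genes that overlap on opposite strands cannot be told apart. Totals ranged from 23785164 to 28307591 counts.

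Counts were summed per gene, and the 20528 genes kept by filterByExpr were scaled by TMM and tested with edgeR 4.0.16 (quasi-likelihood, Benjamini-Hochberg, R 4.3.3). The study's methods name DESeq2, which was run as an alternative (1.42.0), as was limma-voom (limma 3.58.1). An exact permutation test of 2 against 2 libraries cannot go below a two-sided p of 0.333. The other alternatives were RLE and upper-quartile factors, 2 other filters (1 count in total, or a mean of 10 counts), the replicate block, each library left out, the transcript with the highest mean count, no mitochondrial genes and the study's thresholds (adjusted p under 0.01, absolute log2 fold change above 0.5). Summing *ANXA2* with its copies, and DESeq2 at the study's thresholds, were chosen after seeing the data. The script was tested on simulated counts.

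The members and the 9 other gene lists were chosen with earlier results of these data known. The named genes were the members, their pseudogenes, the overexpressed gene, of each list the 2 tested genes with the highest mean CPM and the 2 with the smallest unadjusted p, and the 5 genes closest to *ANXA3* among those averaging 1 CPM or more with no 0. Genes at 0 in a list and *GMCL1*, *AAK1*, *RP11-537A6.9*, *CHMP3*, *PLAT* and *ENO1* were named outside this rule, after their values were seen. Values of some genes under the naming rule are not reported here. Exons, lengths and sequences came from the GENCODE annotation lifted to GRCh37, matched on transcript identifiers whose versions may differ, and promoters from RefSeq. Transcripts were aligned with Biopython 1.88.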

Additional observations from a re-analysis of the deposited data

How the results depend on the processing

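DESeq2 called 3 members, or 2 at the study's thresholds, and every other alternative called 0. Under DESeq2 4064 of all tested genes were called, against 122 with edgeR, 299 with limma-voom, 9 on the transcript with the highest mean count, and 0 with the replicate block. The study's thresholds left 0 with edgeR and 1800 with DESeq2, the tool the study names. The edgeR count was from 0 to 120 with 1 library left out. DESeq2 called 1 of the other annexins, 1 pseudogene, 2 other S100 genes, 3 partners and receptors, 2 plasmin system genes, 5 membrane repair genes, 5 adrenergic markers and 4 mesenchymal markers. limma-voom called 1 other S100 gene and 1 mesenchymal marker. The single adrenergic call became 0 with a minimum of 1 count in total, with the replicate block, on the highest transcript and with any library left out (range 0 to 0). With 1 library left out, the plasmin system had from 0 to 2 calls and the mesenchymal markers from 0 to 1, all without OE 2, where OE 1 was the only OE library and the controls alone gave the spread. The cause of these moves was not tested.

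The median log2 fold change of the members lay between -0.21 and -0.05 with 1 library left out. Of 126 values for members under the alternatives, 117 kept direction and call, 3 gained a call under DESeq2 (*ANXA3*, *ANXA6* and *S100A10*) and 6 reversed. *ANXA1* turned to 0.02 with upper-quartile factors and ranged from -0.13 to 0.09 with 1 library left out, as *ANXA2* did from -0.16 to 0.03 and *ANXA4* from -3.20 to 0.07. Among the other named genes, 414 of 459 values kept direction and call, 24 gained a call, 10 lost it and 11 reversed. The overexpressed gene lost its call with the replicate block (log2 fold change 6.11, adjusted p 0.193) and without either control library (adjusted p 0.052 and 0.0525). Signs turned for *S100A16* (0.22 on the highest transcript, -0.78 to 0.06 with 1 library left out), *EPCAM* (0.22 on the highest transcript), *AHNAK* (-0.21 to 0.09), *AHNAK2* (-0.03 to 9.24) and *LRP1* (0.04 with upper-quartile factors, 0.00 with limma-voom and with a minimum of 1 count, 0.01 on the highest transcript, and -0.07 to 0.06).

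Libraries of the same replicate number did not deviate together over all tested genes (correlation of deviations -0.0216). This single value cannot exclude a shared handling that affects part of the genes, and the labels give no pairing. The replicate block called 0 members. With 2 libraries per group and from 25 to 150 counts, *ANXA3* and *ANXA6* rest on few reads. The split of reads between *ANXA2* and *ANXA2P2*, and between the transcripts of *ANXA1*, limits the values of both genes.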
